A study of Mus musculus with 6 samples.

Results

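The 9 genes described here encode enzymes and a carrier of retinoid metabolism: the retinol dehydrogenases Adh1, Adh7, Rdh10 and Dhrs9, the retinal dehydrogenases Aldh1a1, Aldh1a2 and Aldh1a3, the retinoic acid carrier Crabp2 and the retinoic acid hydroxylase Cyp26b1. They were looked up by symbol among 49452 gene rows of an RNA-seq table of mouse epidermis, and all 9 were found. They were chosen with the comparison of control and knockout-labelled libraries already known, so their own values are given as a description, without a test. The epidermis came from C57BL/6 mice at embryonic day E19.5. Of the 6 libraries, 3 carry the genotype label Control (261, 262 and 264) and 3 the label Rictor -/- (263, 265 and 266; ricEKO in their titles), with no treatment named. The Rictor protein is a subunit that defines mTOR complex 2, a kinase complex that activates AKT, and the question was how mRNA levels differ when it is lacking from the epidermis. No source used here says how the deletion was made or which cells carried it, and each label names only the genotype.

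Retinol reaches keratinocytes from the blood and is stored as retinyl esters or oxidised in steps. Alcohol and short-chain dehydrogenases convert retinol to retinal reversibly, and retinal dehydrogenases then make retinoic acid. Retinoic acid binds nuclear receptors of the RAR family paired with RXR, and CYP26 enzymes inactivate it. In skin, retinoids are known for their effects on keratinocyte growth and cornification and on hair follicles and sebaceous glands.

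All values are FPKM, fragments scaled by transcript length and library size, so levels can be compared between genes. Changes are differences of log2(FPKM + 1), knockout-labelled minus control, which understate the change of genes near or below 1 FPKM. The 13500 genes that averaged 1 FPKM or more among the controls or among the knockout-labelled libraries entered limma's linear model with Benjamini-Hochberg adjustment. The FPKM of a library summed to between 609375 and 672925. The commonest ratio of low values between control 261 and another library gave depths of 1.05 to 1.21 times that of control 261. Such a ratio equals depth only if equal fragment counts are the commonest case among these low genes. The FPKM of Rictor were 5.63, 6.02 and 4.37 for controls 261, 262 and 264 and 6.83, 7.04 and 6.86 for knockout-labelled 263, 265 and 266. It was thus not lower under the knockout label (limma adjusted p = 0.0694), and a whole-gene FPKM can include exons outside a deleted part. Directions are therefore those of the labels. Keratinocyte markers Krt5, Krt14, Krt1, Krt10 and Lor lay between 2352 and 13047 FPKM across the libraries, and all 6 endothelial markers were under 1 FPKM. Separate animals are not named in the labels, so p-values measure the spread between these libraries, which may be technical. Of all genes tested 23.5% were called at an adjusted p under 0.05, 7.91% higher and 15.6% lower. Rises made up 33.7% of the calls on the deposited values and 49.8% after trimmed mean scaling.

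The promoters of the alcohol dehydrogenases Adh1 and Adh7, which lie next to each other on chromosome 3 and differed in behaviour, and of Dhrs9, the member with the largest positive difference, are shown as the 250 bases before the RefSeq start on GRCm38.p6, 5′ to 3′ on the plus strand. Capitals mark matches, on either strand, to the half-sites bound by retinoic acid receptors (AGGTCA, its form GGGTCA, its form AGTTCA or its form GGTTCA), to TATAAA, to the AP-1 motif TGANTCA or to the forkhead motif GTAAACA. The windows are chr3:138277335-138277584 for Adh1, chr3:138217523-138217772 for Adh7 and chr2:69380212-69380461 for Dhrs9.
Adh1: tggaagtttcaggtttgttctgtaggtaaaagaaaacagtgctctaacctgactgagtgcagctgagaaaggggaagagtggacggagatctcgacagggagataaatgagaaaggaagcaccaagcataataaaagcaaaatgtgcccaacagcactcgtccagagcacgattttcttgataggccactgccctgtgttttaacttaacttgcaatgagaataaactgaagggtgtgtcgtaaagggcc
Adh7: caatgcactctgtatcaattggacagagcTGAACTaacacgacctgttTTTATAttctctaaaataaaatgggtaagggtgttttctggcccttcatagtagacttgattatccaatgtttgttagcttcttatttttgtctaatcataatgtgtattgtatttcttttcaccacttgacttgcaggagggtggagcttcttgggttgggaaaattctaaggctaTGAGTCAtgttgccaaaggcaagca
Dhrs9: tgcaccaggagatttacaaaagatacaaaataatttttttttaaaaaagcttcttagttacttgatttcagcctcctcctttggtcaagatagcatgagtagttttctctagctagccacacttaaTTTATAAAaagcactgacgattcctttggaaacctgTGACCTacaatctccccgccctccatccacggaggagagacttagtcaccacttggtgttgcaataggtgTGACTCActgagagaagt
The Adh1 window held no match to any of these motifs. It lies inside the longer gene model of GENCODE, which starts further upstream. The Adh7 window held a half-site on the minus strand 221 bases before the start, a TATAAA match on the minus strand at 202 and TGANTCA at 25. The Dhrs9 window held overlapping TATAAA matches on the minus and plus strands at 124 and 122 bases, an AGGTCA half-site on the minus strand at 88 and TGANTCA at 18 bases before the start. RefSeq windows were matched for 6 of the 9 members (7 windows, as Aldh1a1 has 2), and Aldh1a3, Crabp2 and Rdh10 had none matched. Over these, TGANTCA occurred in 3 of 7 windows (Adh7, Aldh1a1 and Dhrs9), against 6.75% of 32851 promoter windows of the same length. Any half-site occurred in 3 of 7 windows against 38.6%, TATAAA in 3 of 7 against 12.4%, and GTAAACA in 0 of 7 against 3.17%. Direct repeats of the half-sites spaced by 1, 2 or 5 bases, the arrangements known for retinoic acid response elements, were in 0 of 7 windows, against 0.164%, 0.174% and 0.0883% of all windows. The Aldh1a2 window stood apart in base composition, with 77.6% G and C and 40 CpG, against medians of 52.4% and 6 over all windows. A match describes letters in these windows and is not a measurement of binding.

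Across the libraries the 9 genes spanned over 3 orders of magnitude, and the order of the most abundant members changed with the label. In the controls Adh1 was highest at 136 ± 28.2 FPKM (SD, n = 3 per group here and below), followed by Crabp2 at 84.2 ± 6.81 FPKM. In the knockout-labelled libraries Crabp2 led at 132 ± 3.90 FPKM and Adh1 came next at 36.5 ± 11.7 FPKM. The values of these 2 genes did not overlap within either group. Cyp26b1, Rdh10 and Adh7 followed in both groups, with overlapping values between Cyp26b1 and Rdh10 in the controls and between Rdh10 and Adh7 in both. Aldh1a3, Aldh1a1, Dhrs9 and Aldh1a2 completed the order in the controls, without overlap between neighbours. Dhrs9 moved from the eighth place to the sixth, above Aldh1a3, in the knockout-labelled libraries.

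Groups did not overlap for 6 of the 9 members, 4 lower (Adh1, Rdh10, Aldh1a1 and Aldh1a3) and 2 higher (Dhrs9 and Crabp2). Of all genes tested, 45.8% had groups that did not overlap, 29.2% lower and 16.6% higher, and nothing is read from the members' count because this contrast chose them. The median log2 difference of the 9 members was -0.06, beside -0.06 for all genes tested. The members' median is the value of Aldh1a2, at most 0.179 FPKM in every library, so nothing is read from this likeness. Of the 9, 7 passed the filter on low values, Dhrs9 among them only through the knockout-labelled libraries, while Aldh1a1 and Aldh1a2 did not. The plot of each member by library shows the separate groups of Adh1, Dhrs9, Aldh1a1 and Crabp2.

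**Figure D1:**
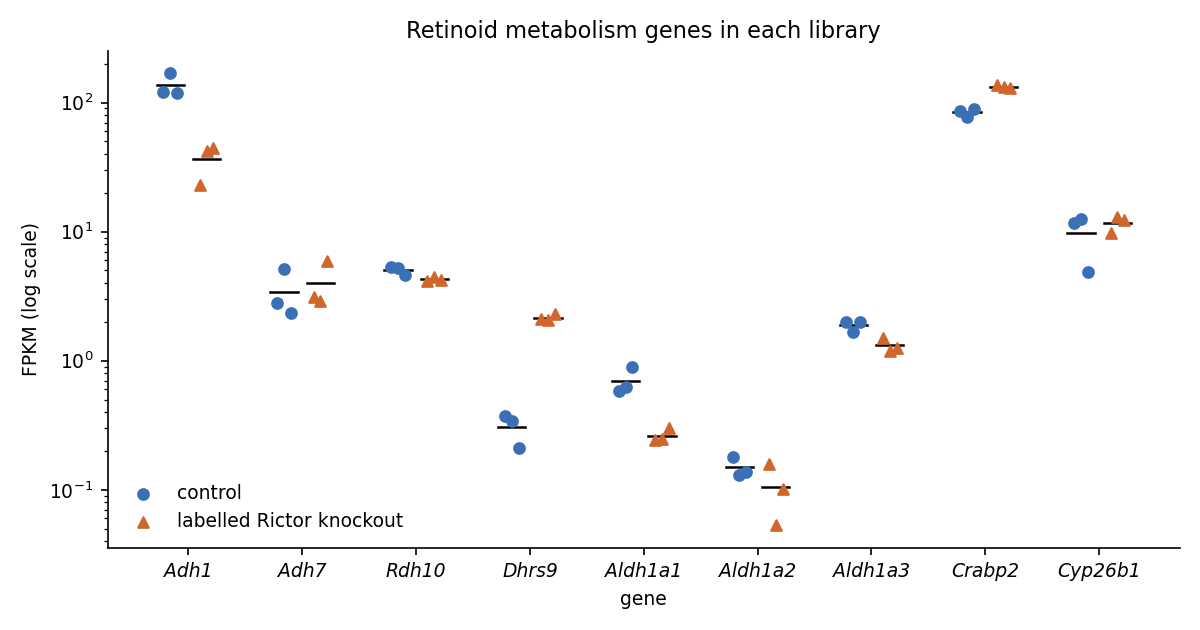
FPKM of the 9 retinoid genes on a log axis, with 1 point per library (circles, 3 controls; triangles, 3 libraries labelled Rictor knockout) and a bar at each group mean. Adh1 stood below Crabp2 in the knockout-labelled libraries, Dhrs9 stood at 2.08 to 2.28 FPKM there against 0.209 to 0.374 FPKM in controls, and control 264 lay below the other libraries for Cyp26b1.

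Adh1 (ENSMUSG00000074207, chromosome 3, 138260991 to 138290698), a cytosolic alcohol dehydrogenase that oxidises retinol and ethanol, stood at 121, 168 and 118 FPKM in controls 261, 262 and 264. It stood at 23.1, 42.0 and 44.3 FPKM in knockout-labelled 263, 265 and 266. Every knockout-labelled library was below every control, with 263 the lowest and control 262 the highest. The means differed 3.72-fold, or by -1.90 on the log2 scale, and 29 of the genes tested had a lower log2 difference. Leaving out 263 gave -1.61 and leaving out 266 gave -2.07, the extremes over the libraries. In bulk RNA, fewer cells of a type and less RNA per cell cannot be told apart.

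Adh7 (ENSMUSG00000055301, chromosome 3, 138217760 to 138233382), the alcohol dehydrogenase of stomach and other surface epithelia, was at 2.81, 5.16 and 2.32 FPKM in the controls. The knockout-labelled libraries had 3.11, 2.90 and 5.92 FPKM. The groups overlapped, with 1 library of each group (262 and 266) well above the rest. The log2 difference was 0.17, and with 1 library left out it ranged from -0.09 without 266 to 0.43 without control 262 (-0.01 without control 264).

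The alcohol dehydrogenase genes form a cluster on chromosome 3, and its genes differed unequally between the labels. Adh6a, 52.3 kb from the Adh1 start, was at 3.60, 4.14 and 2.93 FPKM in the controls and 1.44, 2.21 and 1.34 FPKM in 263, 265 and 266, a fall of 0.78 ± 0.16 (SE; limma adjusted p = 0.0164). Adh6b, at 80.8 kb, went from 25.1 ± 2.53 to 18.9 ± 2.38 FPKM (log2 difference -0.40 ± 0.11, limma adjusted p = 0.0447). The call of Adh6b was lost in 12 of 15 alternatives (adjusted p from 0.0526 to 0.114 there) and that of Adh6a in 4 of 14 (0.0515 to 0.0607). Adh5, the formaldehyde-detoxifying class of the family, was at 45.0 ± 4.96 and 44.6 ± 2.65 FPKM, a log2 difference of -0.01 ± 0.09 (limma adjusted p = 0.959). Adh4 was at most 0.127 FPKM in every library. Adh1 made up 59.7% to 68.0% of the summed FPKM of the 6 genes in the controls and 25.8% to 39.3% in the knockout-labelled libraries, a description that rests on the level of Adh1. Without Adh1 the sum was 72.4 to 79.8 FPKM in the controls and 64.9 to 75.9 FPKM in the knockout-labelled libraries. The members of this family are similar in sequence, and no source used here says how the authors' counting treated shared reads.

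**Figure D2:**
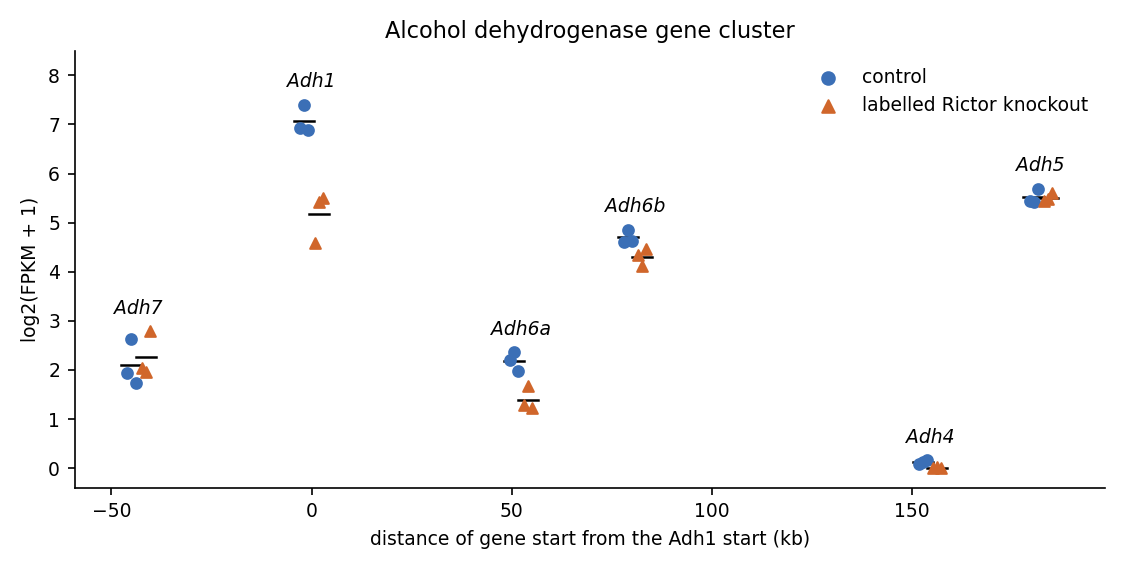
The 6 alcohol dehydrogenase genes by the distance of their start from the Adh1 start (x axis, kb) and their level as log2(FPKM + 1) (y axis), with 1 point per library and a bar at each group mean. The groups lay furthest apart for Adh1, Adh6a and Adh6b were lower by less, and Adh7 and Adh5, at the ends of the cluster, had overlapping groups.

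Rdh10 (ENSMUSG00000025921, chromosome 1, 16105774 to 16133734), the membrane-bound retinol dehydrogenase that is the main one of the embryo, stood at 5.31, 5.18 and 4.61 FPKM in the controls and 4.14, 4.45 and 4.24 FPKM in 263, 265 and 266. The groups lay apart by a small gap, 4.61 against 4.45 FPKM. The log2 difference was -0.19, and it shrank to -0.12 under quantile normalization.

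Dhrs9 (ENSMUSG00000027068, chromosome 2, 69380445 to 69404533), another membrane-bound enzyme able to oxidise retinol, moved the opposite way. Its controls were at 0.374, 0.343 and 0.209 FPKM and its knockout-labelled libraries at 2.10, 2.08 and 2.28 FPKM. The 3 knockout-labelled values lay close together, and the means differed 6.97-fold (log2 difference 1.27). That log2 difference depends on the pseudocount, 2.49 with 0.1 and 0.43 with 5 in place of 1. Relative to Rdh10 in the same library, Dhrs9 was at 0.0454 to 0.0704 in the controls and 0.467 to 0.539 in the knockout-labelled libraries. Even there it stayed below Rdh10.

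The retinal dehydrogenases, which commit retinal to retinoic acid, were low. Aldh1a3 (ENSMUSG00000015134, chromosome 7, 66390890 to 66427517), the most abundant of them, was at 1.98, 1.66 and 1.99 FPKM in the controls and 1.50, 1.18 and 1.26 FPKM in 263, 265 and 266. The groups did not overlap, and the log2 difference was -0.31, or -0.19 under quantile normalization. Aldh1a1 (ENSMUSG00000053279, chromosome 19, 20492715 to 20643465) was at 0.587, 0.620 and 0.897 FPKM against 0.241, 0.249 and 0.300 FPKM. Its groups were also apart, with a 2.66-fold difference of means, at levels under 1 FPKM in every library. Aldh1a2 (ENSMUSG00000013584, chromosome 9, 71215789 to 71296243) was at 0.179, 0.130 and 0.138 FPKM and at 0.158, 0.0532 and 0.102 FPKM, with overlapping groups. Its log2 difference was -0.06, and 0.09 after the adjustment for gene length, at levels of at most 0.179 FPKM. The summed FPKM of the 3 genes was 2.41 to 3.02 in the controls and 1.49 to 1.90 in the knockout-labelled libraries. Aldh1a3 made up 65.8% to 72.1% and 75.9% to 79.7% of that sum.

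Aldh1a7, a close copy of Aldh1a1 that lies beside it on chromosome 19 (20692953 to 20727562), was far more abundant. It stood at 17.6, 17.3 and 20.4 FPKM in the controls and 5.31, 9.56 and 7.85 FPKM in 263, 265 and 266. All 3 knockout-labelled values were below the controls, and the fall was 1.21 ± 0.18 (SE) on the log2 scale (limma adjusted p = 0.00699), a call kept in 15 of 15 alternatives. In each library Aldh1a7 stood at 22.0 to 38.5 times the FPKM of Aldh1a1. Shared reads of these 2 genes could have been assigned to either, and no source used here gives the split. The mitochondrial relative Aldh1b1 was at most 0.64 FPKM in every library.

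Crabp2 (ENSMUSG00000004885, chromosome 3, 87948666 to 87953376), which delivers retinoic acid to its receptors in the nucleus, stood at 86.4, 76.6 and 89.7 FPKM in the controls. It stood at 137, 131 and 129 FPKM in 263, 265 and 266. The knockout-labelled libraries were tightly grouped and all above the controls, with a 1.57-fold difference of means (log2 difference 0.65). After the adjustment for gene length the log2 difference was 0.83.

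Cyp26b1 (ENSMUSG00000063415, chromosome 6, 84571414 to 84593908), which hydroxylates and so inactivates retinoic acid, was at 11.7, 12.6 and 4.88 FPKM in the controls and 9.77, 13.1 and 12.2 FPKM in 263, 265 and 266. The groups overlapped, and control 264 alone lay low. The log2 difference was 0.33 with that library and -0.06 without it. Summed adipocyte markers were highest in the same library, at 8.72 FPKM against 2.07 to 4.99 FPKM in the others. The fibroblast, melanocyte and myeloid marker sums were also highest there, at 278, 448 and 188 FPKM. Those of the other marker lists were not. The part of these cell types in the low value was not tested. The other CYP26 genes, Cyp26a1 and Cyp26c1, were listed at 0 in every library.

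Beyond the members, a list of 57 other retinoid genes was examined, of which 30 passed the filter. Of these 5 rose (16.7%, against 7.91% of all genes tested) and 9 fell (30.0%, against 15.6%). The median log2 difference was -0.17, against -0.06 for all genes tested. The counts without control 264 were 4 and 10, beside 1514 higher and 2270 lower of all 13478 genes tested there. Those without a filter were 3 and 13 of 52 genes tested, beside 724 and 1507 of all 26986. The count of rises was also 3 without control 261 or 262 and without 263 or 266, where 477 to 664 of all genes rose. The count of falls was 6 without 263, where 985 of all genes fell. The counts by role below stand beside the same 7.91% and 15.6% of all genes tested. With 3 or 4 genes tested, a count says little about a role. Within the roles below, no gene passed in the direction given as 0, and at limma's unadjusted p under 0.05 that direction held 0 genes, except 1 lower gene (Krt19) among those that respond to retinoic acid.

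Most of the falls were in enzymes that interconvert retinol and retinal, where 7 of 12 tested genes fell and 0 rose, with a median of -0.49. The paired genes Sdr16c5 and Sdr16c6 on chromosome 4, which encode related membrane-bound retinol dehydrogenases, were the most abundant of them. Sdr16c5 was at 119, 111 and 142 FPKM in the controls and 69.9, 86.2 and 73.1 FPKM in 263, 265 and 266, a fall of 0.69 ± 0.12 (SE; limma adjusted p = 0.0101). Sdr16c6 was at 91.7, 87.8 and 110 FPKM against 49.8, 51.2 and 49.4 FPKM, a fall of 0.92 ± 0.09 (limma adjusted p = 0.00248). Both thus stood lower in all 3 knockout-labelled libraries, and their sum went from 220 ± 27.5 to 126 ± 9.51 FPKM. Rdh12, a retinal reductase, fell from 54.1 ± 6.09 to 34.7 ± 1.11 FPKM (-0.62 ± 0.09). Dhrs3, the retinal reductase that works against Rdh10 and is induced by retinoic acid, fell from 27.2 ± 1.26 to 16.8 ± 0.800 FPKM (-0.66 ± 0.07). Dhrs4, another reductase, fell from 20.0 ± 1.42 to 13.3 ± 0.580 FPKM (-0.55 ± 0.07), so enzymes of both directions were among those that fell. The limma adjusted p-values of Rdh12, Dhrs3 and Dhrs4 were 0.00593, 0.00248 and 0.00471. These calls and those of Sdr16c5 and Sdr16c6 were kept in all 15 alternatives. The dehydrogenases Rdh1 (-0.39 ± 0.07) and Rdh5 (-0.43 ± 0.09) fell with limma adjusted p-values of 0.0118 and 0.0214. The call of Rdh1 was lost without 263 (adjusted p = 0.0527) and that of Rdh5 in 6 of 14 alternatives (0.0574 to 0.0811). Rdh11, Rdh13 and Rdh14, at 14.7 to 23.5 FPKM in the group means, differed by 0.08 ± 0.10, 0.04 ± 0.07 and -0.11 ± 0.09 and did not pass.

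**Figure D3:**
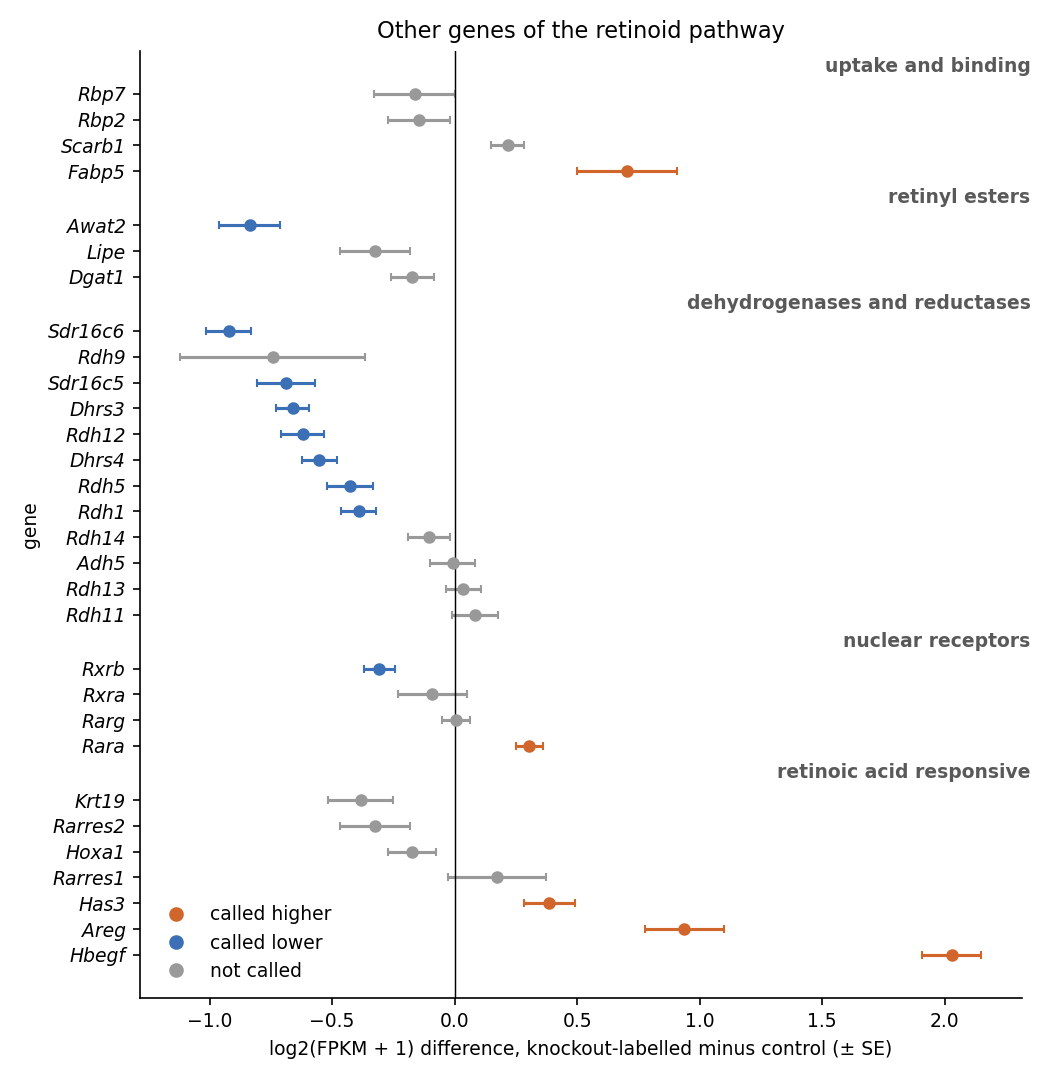
Log2(FPKM + 1) differences, knockout-labelled minus control (x axis), of the 30 tested retinoid genes outside the 9 members, grouped by role; points are estimates from 3 libraries per group, bars their SE, and colour marks limma's call at an adjusted p under 0.05. In the dehydrogenases and reductases 7 genes lie below 0 with a call, and Hbegf and Areg have the largest rises.

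Among carriers and uptake genes 1 of 4 tested rose and 0 fell. Fabp5, a keratinocyte fatty acid carrier that also binds retinoic acid, was at 932, 812 and 1214 FPKM in the controls and 1980, 1273 and 1578 FPKM in 263, 265 and 266. The groups lay apart by a small gap, between control 264 and 265, and the means were 986 ± 206 and 1610 ± 355 FPKM (0.70 ± 0.20, limma adjusted p = 0.0490). Its call was lost in 7 of 15 alternatives (adjusted p from 0.0514 to 0.138 there). The Fabp5 to Crabp2 ratio of FPKM was 10.6 to 13.5 in the controls and 9.71 to 14.5 in the knockout-labelled libraries, with overlapping groups. Rbp2, a cellular retinol-binding protein best known from the intestine, was abundant at 141 ± 7.77 and 129 ± 21.7 FPKM and did not pass (-0.14 ± 0.13, limma adjusted p = 0.434). Scarb1, a lipoprotein receptor that also takes up carotenoids, differed by 0.22 ± 0.07 (limma adjusted p = 0.0615). It passed in 4 of 15 alternatives, all 3 scalings (0.0239 to 0.0342) and the 5 FPKM filter (0.0486). With a library left out it never passed (0.0535 to 0.193). Stra6, the receptor for retinol-carrying plasma protein, was under 1 FPKM in every library.

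For storage as esters, 1 of 3 tested genes fell and 0 rose. Awat2, an acyltransferase that makes wax esters and can esterify retinol, was at 4.54, 6.14 and 6.20 FPKM in the controls and 2.62, 2.44 and 3.01 FPKM in 263, 265 and 266 (-0.84 ± 0.13, limma adjusted p = 0.00672). The knockout-labelled values all lay below the controls. Dgat1 (-0.17 ± 0.09) and Lipe (-0.33 ± 0.14), an esterifying enzyme and a hydrolase, did not pass. Lrat, the principal retinol esterifying enzyme, was at most 0.346 FPKM.

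Of the nuclear receptors, Rarg, the main RAR of epidermis, and Rxra, its principal partner there, were the most abundant. Rarg was at 93.1 ± 1.10 and 93.5 ± 2.41 FPKM, a log2 difference of 0.01 ± 0.06 (limma adjusted p = 0.950). Rxra was at 128, 131 and 90.8 FPKM in the controls and 106, 105 and 113 FPKM in 263, 265 and 266. Control 264 lay below all other libraries, and the difference of -0.09 ± 0.14 (limma adjusted p = 0.669) became -0.26 ± 0.05 without it (adjusted p = 0.0196). Rara rose from 25.7 ± 0.465 to 32.0 ± 0.722 FPKM (0.30 ± 0.06, limma adjusted p = 0.0113), a call lost without 263 (adjusted p = 0.0522). Rxrb fell from 33.7 ± 1.77 to 27.0 ± 0.657 FPKM (-0.31 ± 0.06, limma adjusted p = 0.0169), a call lost in 4 of 15 alternatives (0.0509 to 0.0734). Rarb, the receptor gene induced by retinoic acid itself, did not pass the filter, at 0.800, 1.05 and 0.881 FPKM in the controls and 0.581, 0.644 and 0.630 FPKM in 263, 265 and 266.

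Of 7 tested genes that respond to retinoic acid in epithelia, 3 rose and 0 fell. Hbegf, a ligand of the EGF receptor, was at 3.66, 2.96 and 3.63 FPKM in the controls and 17.8, 19.1 and 14.3 FPKM in 263, 265 and 266. The groups were far apart, with a rise of 2.03 ± 0.12 (SE; limma adjusted p = 0.000502). Areg, another such ligand, was at 7.94, 5.94 and 5.55 FPKM against 16.0, 12.7 and 11.2 FPKM (0.94 ± 0.16, limma adjusted p = 0.0100). Has3, a hyaluronan synthase, rose from 23.0 ± 1.12 to 30.6 ± 4.21 FPKM (0.39 ± 0.10, limma adjusted p = 0.0383), a call lost in 6 of 15 alternatives (0.0690 to 0.0952). Rarres1, a retinoid-induced gene of epidermis, was at 99.5 ± 28.9 and 110 ± 14.0 FPKM and did not pass (0.17 ± 0.20, limma adjusted p = 0.555). These genes also answer to other signals. Dhrs3, itself a responsive gene but counted above among the enzymes, was lower. Rarb, counted among the receptors, lay lower in all 3 knockout-labelled libraries but did not enter the test. Krt19 was lower without passing (-0.38 ± 0.13, limma adjusted p = 0.0801). The part of retinoic acid in these differences was not tested.

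Markers of hair follicle, sebaceous gland, melanocytes and myeloid cells were lower in the same libraries as Adh1, Aldh1a7 and the Sdr16c genes. The marker counts here stand beside 15.6% of all genes tested called lower and 7.91% called higher. Of the sebaceous markers 8 of 10 fell, with a summed level of 275 to 336 FPKM in the controls and 172 to 199 FPKM in the knockout-labelled libraries. Of the follicle markers 10 of 12 fell, with sums of 1681 to 2095 and 1042 to 1191 FPKM. Of the melanocyte markers 4 of 6 fell (364 to 448 and 272 to 308 FPKM). Of the myeloid markers 9 of 9 tested fell (148 to 188 and 82.9 to 97.8 FPKM), with Cd207 at most 0.116 FPKM. Adh1 was at 17.0% to 32.7% of its control mean in the knockout-labelled libraries. There the sebaceous sum was at 54.6% to 63.5% and the follicle sum at 53.6% to 61.2%. Sdr16c6 was at 51.3% to 53.1% and Rdh12 at 62.0% to 66.1%. The sums weigh abundant markers most, and single markers spread unequally. Across all libraries the sebaceous marker Mgst1 ranged from 31.45 to 103.5 FPKM and Fasn from 39.5 to 58.4 FPKM. The follicle marker Krt72 ranged from 22.0 to 67.2 FPKM and Lhx2 from 72.3 to 86.2 FPKM. Of the fibroblast markers 3 of 6 tested rose, with sums of 221 to 278 and 239 to 272 FPKM, while Pdgfra, Pdgfrb, Lum and Twist2 were under 1 FPKM. Of the T cell markers 3 of 4 tested fell, and Thy1, also expressed outside T cells, rose. Limma called 0 of 4 tested skeletal muscle and 0 of 2 tested adipocyte markers, and 0 at an unadjusted p under 0.05. Of the 8 keratinocyte markers 2 rose (Krt5 and Krt14) and 1 fell (Dsg1a), with a median log2 difference of -0.09, opposite in sign to the change in their sum. The keratinocyte sum was at 97.4% to 103% of the control mean in the controls and 105% to 108% in the knockout-labelled libraries. The part of these cell types in the retinoid differences was not tested.

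**Figure D4:**
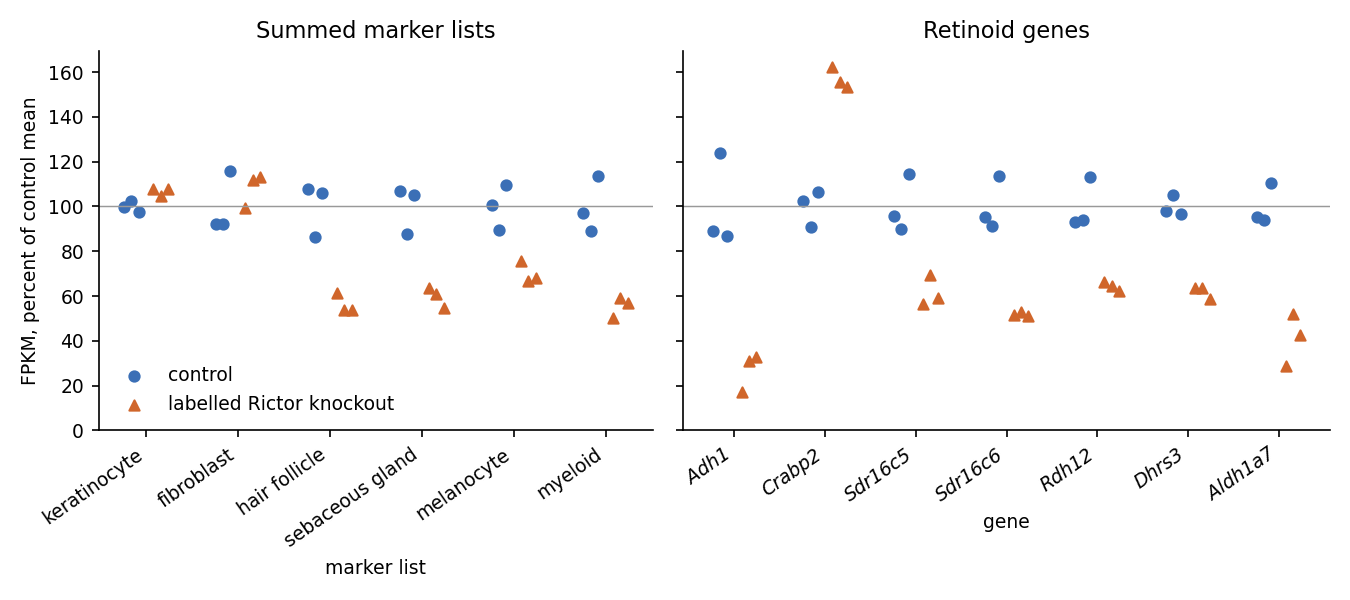
FPKM of each library as a percentage of the control mean, for summed marker lists of 6 cell types (left) and 7 genes (right). The genes are retinoid genes, except Aldh1a7, which is shown as a close copy of Aldh1a1. Circles are the 3 controls and triangles the 3 libraries labelled Rictor knockout. Adh1 lies at 17.0% to 32.7% in the knockout-labelled libraries, under the follicle, sebaceous, melanocyte and myeloid sums. These sums do not show the spread of single markers. Crabp2 lies at 153% to 162%.

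The genes with the pattern most like a member were sought by the smallest mean absolute gap, over the 6 libraries, between log2(FPKM + 1) values centred on each gene's mean. They were drawn from 11723 protein-coding genes, for the 2 members with a log2 difference of at least 1. For Adh1 these were Pla2g5, a secreted phospholipase (gap 0.23), Gjb5, a connexin (0.24), and Ugt1a7c, a glucuronosyltransferase (0.25). Pla2g5 was at 9.36, 9.80 and 10.7 FPKM in the controls and 1.59, 3.25 and 2.34 FPKM in 263, 265 and 266, so 263 was lowest for it as for Adh1. For Dhrs9 they were Col18a1, a basement membrane collagen (gap 0.07), Duoxa1, a maturation factor of dual oxidase (0.08), and Fmnl2, a formin (0.08). Col18a1 was at 36.6, 39.4 and 37.1 FPKM in the controls and 88.0, 86.0 and 84.6 FPKM in 263, 265 and 266. The means of Col18a1, Duoxa1 and Fmnl2 differed 2.3-fold, 2.8-fold and 2.5-fold, against 6.97-fold for Dhrs9. Their likeness to Dhrs9 thus holds on the log2(FPKM + 1) scale, which understates the change of Dhrs9. All these likenesses rest mainly on the difference between the groups.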

How the data were processed

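The authors deposited 1 table of FPKM per gene, with a column for each of the 6 libraries, per the file headers. CASAVA and Cufflinks were used with GRCm38, per the submitters' processing notes, without versions. No source used here gives the aligner, annotation, strand setting or RNA selection. Libraries were grouped by their titles and genotype labels. Symbols and positions came from GENCODE M21 on GRCm38 (49195 of 49452 identifiers matched), keeping the row of highest mean per symbol. FPKM are not counts, so log2(FPKM + 1) was fitted with limma 3.58.1 in R 4.3.3 (intensity trend, no covariates), two-sided and Benjamini-Hochberg adjusted over the 13500 genes averaging 1 FPKM or more among the libraries of 1 group at least, at a threshold of 0.05. Gene-level counting error was not derived, so the precision of low values is unknown.

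The members and lists were chosen with earlier results of these data known, and 1 listed pathway gene is not reported here or counted. Named genes are the members, listed retinoid genes that passed or averaged 10 FPKM or more in 1 group at least, close copies, and the 3 genes of most like pattern per member with a log2 difference of at least 1; genes outside this rule are named as unchanged markers, low genes or comparators after their values were seen. Promoter letters came from RefSeq (GRCm38.p6). Alternatives were pseudocounts of 0.1 and 5, no filter or 5 FPKM, 3 scalings, no trend, a threshold of 0.10, each library left out and, added after seeing the data, a gene length adjustment. Figures used Python 3.11.15 and matplotlib 3.10.9.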

Additional observations from a re-analysis of the deposited data

How the results depend on the processing

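The 9 members were recomputed under 2 pseudocounts, 3 scalings, a gene length adjustment and each library left out. Of the 108 values 95 moved by less than the member's own SD between replicates and 13 by more, mostly low genes under another pseudocount. That limit is wide for the variable Adh7 and Cyp26b1, which changed sign within it (-0.09 without 266 and -0.06 without control 264). Aldh1a2 changed sign after the length adjustment (0.09). Among members whose groups did not overlap 0 changed sign. For these, another pseudocount or a library left out could not reverse the sign. Only the scalings and the length adjustment could have. The count of members with groups that did not overlap was 6 as deposited, 4 to 5 under the scalings and 5 after the length adjustment. It was 6 to 7 with a library left out, which cannot lower this count. Of 17 called pathway genes and close copies 9 kept their call in every alternative run at the 0.05 threshold and 8 lost it in at least 1. Pathway genes called higher numbered 5, 3 without a filter and 3 to 4 with a library left out; those called lower numbered 9, and 6 to 10 with a library left out. Over all genes 3169 were called, and 1462 to 3784 with a library left out (1923 without control 261, 1462, 1745 and 1538 without 263, 265 and 266, and 3784 without control 264). The scalings and the length adjustment moved the median log2 difference of all genes by at most 0.06. No paired analysis was possible because no number is shared between control and knockout-labelled libraries. FPKM without counts leave the precision of genes under 1 FPKM, such as Aldh1a1 and Aldh1a2, unknown.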
